A study of Rattus norvegicus with 46 samples.

Results

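The comparison set 6 bursae taken 14 days after supraspinatus tenotomy against 5 bursae of rats that had no operation, 11 of the 46 RNA sequencing libraries of the series. The bursa is the subacromial bursa, which lies over the rotator cuff. The day 14 libraries are those labelled as activated by tenotomy at 14 days post op, a label that covers rats in which the supraspinatus tendon was cut and the bursa was left in place. The control libraries are those labelled as bursa of non-operative rats. The libraries were chosen by these labels alone. The control rats had no surgery, so the effect of cutting the tendon and that of the operation itself cannot be told apart here. The labels used here state no strain, sex, age or engineered allele, and which rat gave which library is not stated in them. The p-values therefore measure the spread between these samples, part of which may be technical. The same fit also held 6 bursae taken at day 3 after tenotomy, and a wider fit of all 46 libraries held 6 day 14 tendons whose bursa had been kept and 5 control tendons.

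The subacromial bursa is a thin sac of synovial-like, fibrous and fatty tissue that lets the rotator cuff glide under the acromion. After an injury nearby, fibroblasts of connective tissue divide, switch to a matrix-producing state and lay down fibrillar collagen, which lysyl oxidases crosslink. Macrophages clear debris, dendritic cells present antigen, and T cells and natural killer cells enter from the blood. Whole tissue was sequenced, so a lower level of a cell type's genes can mean fewer of those cells or less RNA per cell, and these cannot be told apart.

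Day 14 libraries held 12.5 to 69.9 M estimated counts (median 21.6 M), against 15.5 to 20.4 M in control libraries. The libraries differed in ways the groups do not explain. Control replicates 1 and 2 had 48.9% and 53.5% of counts from mitochondrially encoded genes, against 11.3 to 22.8% in the day 14 bursae and 13.3 to 17% in the other 3 controls, and their 9 tested brown fat markers summed to 8732 and 4483 CPM (estimated counts scaled to a common library size), against 188 to 2456 CPM at day 14 and 122 to 173 CPM in the other controls. Control replicate 4 had the highest sum of the 13 tested tendon markers, 3619 CPM, against 762 to 2096 CPM at day 14 and 348 to 1234 CPM in the other controls. Day 14 replicate 6 was the deepest library and its 19 interferon response genes summed to 7793 CPM, against 566 to 830 CPM in the other 5 day 14 bursae and 412 to 688 CPM in controls. Control replicates 1, 2 and 4 and day 14 replicate 6 are called below the 4 libraries that stood apart. Many counts that moved by over 1.5 times or gained an opposite direction without some or all of them are given. Not every such move is listed, so a count given alone need not have been stable. The marker check of the tissue gave fat and fibrous tissue in both groups: the fat cell hormone gene Adipoq had 1895 to 2907 CPM at day 14 and 2952 to 4975 CPM in controls. Skeletal muscle genes were present throughout, with 1672 to 11344 CPM over 11 markers at day 14 and 583 to 22946 CPM in controls. Of 5 red blood cell genes edgeR called 0, while 3 were lower at day 14 at an unadjusted p under 0.05, 3 by DESeq2, and 3 by edgeR without control replicates 1 and 2. The B cell gene Cd79a (at 0 in control replicate 2) and the neutrophil gene S100a8 (0.0525 to 0.687 CPM at day 14 and 0.27 to 0.491 CPM in controls) did not pass the test in edgeR. Of 5 tested neutrophil and alarmin genes 1 rose and 0 fell in edgeR, and 2 rose by DESeq2. Among members not matched to a transcript, the authors' deposited table had Retnlg higher and Mpo lower at day 14. Its log2 values for control over day 14 were -2.30 and 1.19 (adjusted p = 7.2e-08 and 4.4e-05, DESeq2 by the authors). No other such member had an adjusted p under 0.05 there. The part of these other cells in the results was not tested.

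Expression is given throughout as CPM, scaled by the trimmed mean of M values (TMM), and differences as log2 of day 14 over control with the standard error. Of 16221 features tested with edgeR's quasi-likelihood test and Benjamini-Hochberg adjustment, 1526 (9.41%) rose and 1129 (6.96%) fell at day 14 at an adjusted p under 0.05. The median log2 difference over all features was -0.05. Lists called in 1 direction only were also read at an unadjusted p under 0.05 and by DESeq2. The opposite direction then held 1 protease inhibitor, 1 gene of the Spp1 and Trem2 macrophage list and 1 endothelial gene by both, 2 cartilage and bone genes at the unadjusted p alone, and no gene of the other lists whose counts are given below. In 1061 features (6.54%) every day 14 value was above every control value, and in 651 (4.01%) every day 14 value was below. The counts were lower without control replicate 2, at 1121 risen and 760 fallen, and highest without control replicate 4, at 1885 and 1653. A fit of these 11 libraries alone called 879 risen and 678 fallen.

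Genes of the extracellular matrix and of the fibroblasts that make it rose. Of 8 tested fibrillar collagens 5 rose and none fell, with a median log2 difference of 1.83. Col1a1, the main chain of type I collagen, had 10956 to 19071 CPM in the 6 day 14 bursae (median 15304), against 278, 166, 1863, 3037 and 2095 CPM in control replicates 1 to 5. Its log2 difference was 3.33 ± 0.60 (adjusted p = 0.0022, edgeR) with no overlap between the groups. Col3a1, the type III collagen of early repair tissue, had 20848 to 31668 CPM at day 14 (median 26024), against 913, 717, 5750, 7908 and 6099 CPM in controls, a log2 difference of 2.62 ± 0.51 (adjusted p = 0.0035, edgeR). The 2 controls rich in brown fat and mitochondrial genes were the lowest for both, and without them the differences were 2.68 for Col1a1 and 1.99 for Col3a1, both still called. Col5a1, which seeds collagen fibrils, rose by 2.20 ± 0.45. The fibrillar count was 3 without day 14 replicate 2.

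Among other collagens 8 of 18 tested rose and 1 fell, a count that was 5 without any one of day 14 replicates 4 and 5 and control replicates 1 and 2, and 4 without both of these controls. Col6a1, a chain of the beaded filaments around cells, had 1105 to 1725 CPM at day 14 (median 1573), against 207, 188, 687, 868 and 682 CPM in controls, a difference of 1.54 ± 0.34. Col12a1, a collagen that decorates fibrils, ranged from 119 CPM in day 14 replicate 6 to 1211 CPM in day 14 replicate 2 and overlapped the controls, at 20.6 to 192 CPM. Its difference of 2.21 ± 0.60 passed the test (adjusted p = 0.02, edgeR) and missed it without both brown-fat-rich controls (1.74, adjusted p = 0.085). The membrane collagen Col13a1 moved the other way, at 0.629 to 3.26 CPM at day 14 (median 1.52), against 4.06, 3.13, 5.16, 7.47 and 6.34 CPM in controls, a fall of 1.52 ± 0.33 on the log2 scale.

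Genes that modify and crosslink collagen rose with it: 13 of 22 tested rose and 1, the prolyl 3-hydroxylase P3h2, fell. Lox, the lysyl oxidase that starts crosslinking, had 147 to 260 CPM at day 14 (median 209), against 16.6, 14.5, 44.5, 59.6 and 49.7 CPM in controls, a log2 difference of 2.43 ± 0.35 (adjusted p = 0.00059, edgeR). All 6 day 14 values lay above all 5 controls, and the difference was 1.97 without control replicates 1 and 2. Its relative Loxl1, which acts on elastin, rose by 1.79 ± 0.32, and the procollagen C-proteinase Bmp1 by 1.52 ± 0.29. P4ha3, a prolyl 4-hydroxylase subunit, rose by 2.88 ± 0.69, from values as far apart as 1.46 CPM in day 14 replicate 6 and 38.8 CPM in day 14 replicate 2 (controls 0.19 to 4.96 CPM), and its adjusted p was 0.056 without control replicates 1 and 2. The call of P3h2 was lost in 7 of 11 fits that left out 1 library (adjusted p up to 0.082).

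Secreted and surface proteins of activated fibroblasts held some of the highest fold changes. Of 21 tested, 13 rose and none fell (median log2 difference 1.65), against 12 and 1 without control replicates 1 and 2. Cthrc1, a secreted protein made by fibroblasts of injured tissue, had 28.0 to 247 CPM at day 14 (median 108), against 1.35, 0.854, 1.90, 4.31 and 3.45 CPM in controls, a log2 difference of 5.53 ± 0.57 (adjusted p = 4.5e-05, edgeR). Its lowest day 14 value, in replicate 6, was above its highest control. Lrrc15, a surface protein of activated fibroblasts, had 2.2 to 76.1 CPM at day 14 (median 24.3), against 0.18, 0.0949, 0.2, 2.51 and 0.0851 CPM in controls, with control replicate 4 inside the day 14 range (log2 difference 5.42 ± 0.95, adjusted p = 0.0018, edgeR). Cpz, a carboxypeptidase that binds Wnt proteins, had 49.9 to 92.3 CPM at day 14 (median 75.5), against 1.53, 0.285, 3.71, 3.60 and 4.89 CPM in controls. The Cpz difference of 4.64 ± 0.44 (adjusted p = 2.7e-05, edgeR) came with little spread within day 14. Spon1, a matrix protein first described in nerve guidance, had 144 to 312 CPM at day 14 (median 251), against 10.1, 25.3, 15.9, 9.10 and 14.5 CPM in controls, a difference of 3.99 ± 0.32 (adjusted p = 7.5e-06, edgeR). Unlike the collagens, Spon1 was not lower in control replicates 1 and 2, and its difference without them was 4.17. The matrix genes Thbs4 and Tnc, which are abundant in tendon, did not pass the test, at 1.56 ± 0.74 and 1.49 ± 0.82 (adjusted p = 0.15 and 0.21, edgeR). Control replicate 4 held 392 CPM of Thbs4 and 299 CPM of Tnc, the highest control value of each, and without it both were called, at 2.67 and 2.99.

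**Figure D1:**
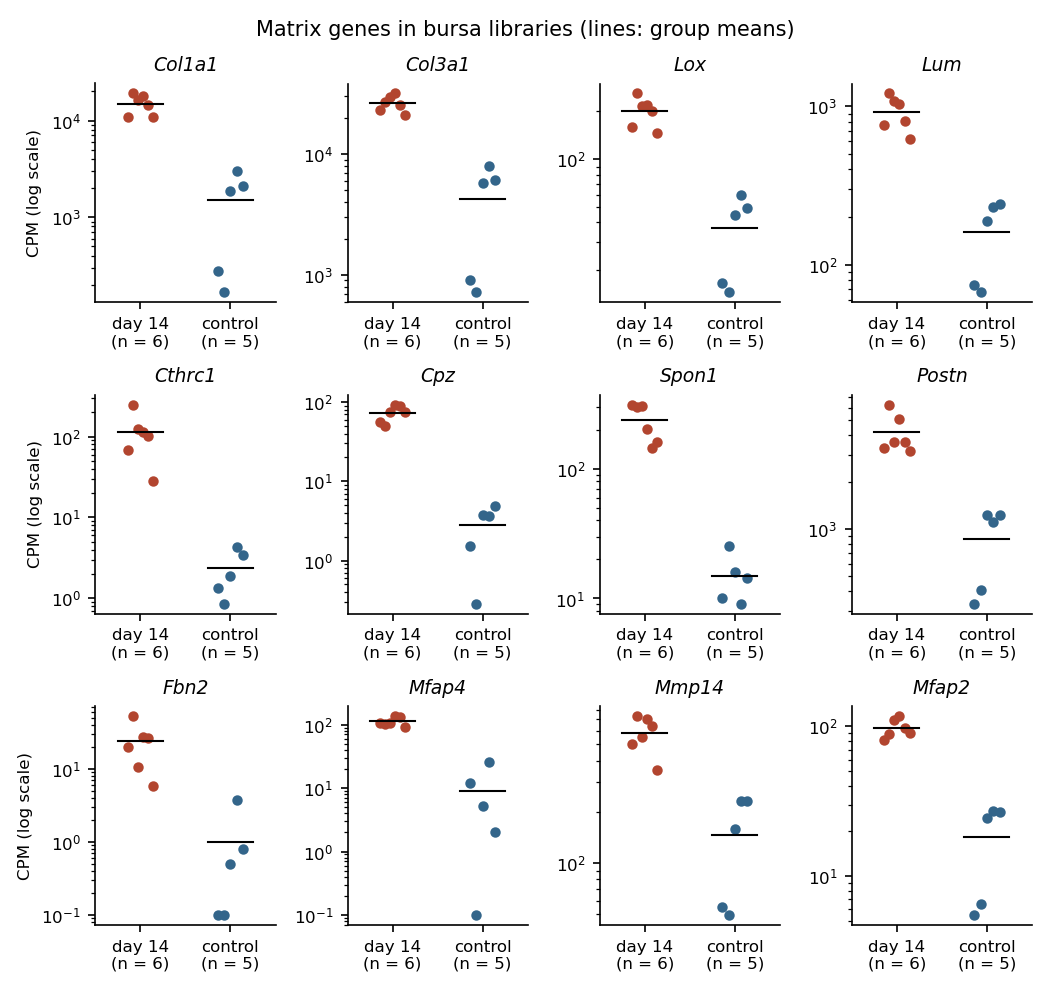
Each panel plots 1 matrix gene in CPM on a log axis, with a point for each of the 6 day 14 bursae (left) and 5 control bursae (right) and a line at the group mean; values under 0.1 CPM are drawn at 0.1. In all 12 genes the day 14 points lie above every control point, and for genes such as Col1a1 (278 and 166 CPM) control replicates 1 and 2 form the lower end of the controls.

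Of 10 tested small proteoglycans, which bind collagen fibrils and set their width, 2 rose. Lum was called, with 619 to 1207 CPM at day 14 (median 918), against 74.7, 66.7, 188, 231 and 241 CPM in controls (log2 difference 2.52 ± 0.33, adjusted p = 0.00024, edgeR). The other called member was Podnl1, at 2.11 ± 0.61, which lost its call in 4 of 11 fits that left out 1 library, with adjusted p up to 0.066 without control replicate 2. Dcn and Bgn, the most familiar of these proteoglycans, had log2 differences of 0.38 and 0.97 and did not pass (adjusted p = 0.44 and 0.18, edgeR). The list's count was 6 without control replicate 4, and 1 without any one of day 14 replicate 2 and control replicates 1, 2 and 3.

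Elastic fibre and microfibril genes rose in 9 of 17 tested members, none fell, and 8 of 17 had no overlap between groups. Without control replicates 1 and 2 these were 7 rises and 1 fall. Fbn2, the fibrillin known mainly from developing tissue, had 5.87 to 53.3 CPM at day 14 (median 23.4), against 0, 0, 0.501, 3.76 and 0.808 CPM in controls, a difference of 4.45 ± 0.81. Mfap4 had 90.5 to 136 CPM at day 14 (median 105), against 11.9, 0, 5.31, 25.6 and 2.04 CPM in controls, a difference of 3.64 ± 0.73. Both encode microfibril proteins, and in both the lowest day 14 bursa was above the highest control. Mfap2 rose by 2.41 ± 0.37 and elastin itself, Eln, by 1.78 ± 0.40, from 492 to 877 CPM at day 14 (median 556), against 78.4, 83.0, 118, 414 and 208 CPM in controls. Members that tether latent TGF-beta, Ltbp1 to Ltbp4, did not pass the test, with log2 differences between -0.61 and 0.54.

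Of 21 tested matrix proteases 12 rose and none fell, against 11 and 2 without control replicates 1 and 2 and 9 and 1 without the 4 libraries that stood apart. Mmp12, the macrophage elastase, had 0.117 to 66.5 CPM at day 14 (median 4.07), against 0.0901, 0, 0, 0.109 and 0 CPM in controls (adjusted p = 0.0044, edgeR). With controls at or near 0 no fold is given. Its values were uneven within day 14, highest in replicate 1 and lowest in replicate 4. Adamts16 rose by 3.44 ± 0.51, with 6.61 to 17 CPM at day 14 (median 14.1), against 0.361, 0.0949, 2.41, 1.20 and 1.79 CPM in controls. Mmp14, the membrane collagenase, rose by 2.00 ± 0.38 and Adamts15, which cleaves proteoglycans, by 2.02 ± 0.28 (adjusted p = 0.0028 and 0.00046, edgeR). Mmp3 and the collagenase Mmp13 did not pass, with Mmp13 at 0 to 0.944 CPM at day 14 and 0 to 0.109 CPM in controls. Of 10 tested protease inhibitors 2 rose, against 1 without any one of day 14 replicates 2, 4 and 6 and control replicate 1, and 4 without control replicate 4. Without control replicates 1 and 2 the list had 1 rise and 3 falls. A2m, the broad protease trap, was listed at 0 in every control and had 0.352 to 2.75 CPM at day 14 (median 0.858). The tissue inhibitors Timp1 and Timp2 had differences of 0.95 and 0.91 and missed the threshold (adjusted p = 0.06 and 0.066, edgeR). Slpi, an inhibitor of leukocyte elastase, was named by the size of its rise and is not counted among these 10. It had 8.30 to 34.3 CPM at day 14 (median 16.5), against 2.61, 2.28, 1.20, 1.09 and 2.25 CPM in controls, a difference of 3.34 ± 0.38.

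Cell division genes were still raised at day 14: 16 of 19 tested rose, none fell, and in 14 the groups did not overlap. The count was 9 without control replicates 1, 2 and 4 and day 14 replicate 6. Mki67, the usual marker of cycling cells, had 13 to 28.3 CPM at day 14 (median 16.9), against 1.62, 2.47, 5.31, 6.27 and 4.93 CPM in controls, a log2 difference of 2.09 ± 0.32 (adjusted p = 0.00069, edgeR). Top2a, the topoisomerase that untangles chromosomes, rose by 2.11 ± 0.34, and Rrm2, which makes DNA precursors, by 2.15 ± 0.37. Cenpf, a protein of the centromere, had 4.42 to 9.77 CPM at day 14 (median 4.79), against 0.18, 0.285, 1.5, 2.02 and 1.23 CPM in controls, a difference of 2.31 ± 0.42. Day 14 replicate 4 was the highest library for all 4. Pcna and Tyms, which also serve DNA repair and nucleotide supply, did not pass, at 0.05 and -0.06. Promoters of such genes often carry the CHR element, here searched as TTTGAA, and CCAAT boxes, both on either strand of the 300 bases around the RefSeq start. On the GRCr8 build 16 of the 19 members had a promoter in the RefSeq table. TTTGAA was in 8 of them (50%), against 18.1% of all 27457 promoters in the table, and CCAAT in 11 (68.8%), against 37.7%. The Cenpf promoter is shown because it holds both, with the matches in capitals (1 TTTGAA and 3 CCAAT, one of them as ATTGG on the other strand), at chr13:103760837-103761136 on the minus strand.
Cenpf: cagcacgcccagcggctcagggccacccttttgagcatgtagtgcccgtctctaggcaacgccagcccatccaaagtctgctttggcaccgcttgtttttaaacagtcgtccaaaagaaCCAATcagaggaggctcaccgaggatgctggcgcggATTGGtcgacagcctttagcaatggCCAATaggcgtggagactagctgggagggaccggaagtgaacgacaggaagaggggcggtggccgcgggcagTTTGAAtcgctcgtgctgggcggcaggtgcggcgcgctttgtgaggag

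Transcripts of cytotoxic lymphocytes rose as a group. All 13 tested members of the cytotoxic effector list, of 17 listed, rose, all 13 without overlap between groups, with a median log2 difference of 2.40, and all 13 stayed called whichever single library was left out. Their summed level was 37.5 to 132 CPM at day 14, against 9.19 to 22.2 CPM in controls. Nkg7, a granule protein of natural killer and cytotoxic T cells, had 2.78 to 9.18 CPM at day 14 (median 3.78), against 0.0901, 0.759, 0.451, 0.327 and 0.851 CPM in controls, a difference of 3.25 ± 0.48 (adjusted p = 0.00063, edgeR). The pore-forming protein gene Prf1 had 5.15 to 14.9 CPM at day 14 (median 9.19), against 2.07, 4.46, 1.5, 1.31 and 2.51 CPM in controls, a difference of 2.01 ± 0.34. Klrk1, the activating receptor also called NKG2D, had 4.78 to 45.9 CPM at day 14 (median 7.76), against 0.631, 1.33, 2.00, 1.74 and 3.57 CPM in controls. Its difference of 2.81 ± 0.59 was 1.83 without day 14 replicate 6, which held the highest value, and was still called (adjusted p = 0.0028, edgeR). Eomes and Xcl1, a transcription factor and a chemokine of these cells, had 0.998 to 2.33 and 0.787 to 3.59 CPM at day 14, against 0 to 0.1 and 0 to 0.0949 CPM in controls. Both were near 0 in every control, so their folds are not given. Such genes could pass the filter on low counts only through injured bursae, and a fall could not have been seen in them. The count of 13 of 13 is in part fixed by this. Of the 17 listed members 15 were matched to a transcript. Ifng, which was not tested, had a log2 value of -0.063 for control over day 14 in the authors' deposited table, at a mean count of 0.411.

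General T cell and natural killer cell genes followed, with 16 of 19 rising and none falling. The count was 11 without control replicates 1 and 2, and 7 without these, control replicate 4 and day 14 replicate 6. Cd27, a costimulatory receptor, had 1.10 to 2.95 CPM at day 14 (median 1.43), against 0.0901, 0.285, 0.251, 0.164 and 0.128 CPM in controls, a difference of 3.19 ± 0.41. Genes as low as this in every control could pass the filter on low counts only through injured bursae. A fall could hardly have been seen in them, so the absence of falls is in part fixed. The same limit holds for any regulatory or checkpoint gene below that is as low in controls. Il2rb, the shared receptor chain for interleukins of these cells, had 8.88 to 18.1 CPM at day 14 (median 11.4), against 1.26, 4.56, 1.20, 1.04 and 2.17 CPM in controls (2.60 ± 0.37). T cell receptor complex genes were lower in level and rose less, with Cd3g at 2.16 ± 0.40 and Cd3e at 1.64 ± 0.38. Cd3e had 1.10 to 4.64 CPM at day 14 (median 2.57), against 1.08, 0.854, 0.2, 1.04 and 1.02 CPM in controls, so its lowest day 14 bursa, replicate 2, was barely above the highest control. Of the coreceptors, Cd8a rose by 1.75 ± 0.30, Cd8b by 2.28 ± 0.27 and Cd4, which rat macrophages also express, by 1.22 ± 0.29. Only 4 of 11 regulatory and checkpoint genes could be tested, of which Tnfrsf18, Havcr2 and Icos rose and Il2ra did not pass. Of 3 B cell and plasma cell genes edgeR called 0, as did DESeq2 and an unadjusted p under 0.05.

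Dendritic cell genes rose alongside. Of 13 tested genes of class II antigen presentation and dendritic cells 11 rose and 1 fell, and the count of 11 was the same whichever single library was left out, but it was 3 without control replicates 1, 2 and 4 and day 14 replicate 6. Clec9a, a receptor for dead cells on cross-presenting dendritic cells, had 2.99 to 8.35 CPM at day 14 (median 4.63), against 0.721, 0.475, 0.251, 0.491 and 1.06 CPM in controls, a difference of 3.08 ± 0.36 (adjusted p = 0.00013, edgeR). Xcr1, the receptor for Xcl1 on the same cells, rose by 2.97 ± 0.54, and Flt3, the growth factor receptor they depend on, by 2.34 ± 0.27. Irf8, a transcription factor these cells need, had 38.6 to 94.6 CPM at day 14 (median 61.8), against 18.4, 21.7, 11.7, 13.7 and 16.8 CPM in controls (1.90 ± 0.21). In none of these 4 genes did a day 14 value fall within the controls. Class II genes themselves rose by about 1 on the log2 scale, with Cd74 at 1.14 ± 0.27 and RT1-Da at 1.19 ± 0.26. The fall was in Zbtb46, a transcription factor of dendritic cells and endothelium, at -0.49 ± 0.13.

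Macrophage genes rose in 11 of 15 tested general markers, with none falling. Cd68, a lysosomal marker, had 75.1 to 125 CPM at day 14 (median 91.5), against 32.0, 24.6, 44.8, 45.1 and 41.1 CPM in controls, a difference of 1.36 ± 0.17 (adjusted p = 0.00015, edgeR). Ms4a7 had the largest difference of the list, 2.34 ± 0.35, and Adgre1, the F4/80 antigen, rose by 1.53 ± 0.26 with day 14 values within a narrow band of 66.5 to 86.5 CPM. The 3 complement C1q genes, which macrophages make, had differences of 0.89 to 0.95 and did not pass. Among genes linked to resident macrophages, Siglec1 had 39.4 to 264 CPM at day 14 (median 53.9), against 4.96, 4.46, 11.8, 9.21 and 13.4 CPM in controls. Its difference was 3.28 ± 0.52, and 2.51 without day 14 replicate 6, the library at 264 CPM. Mrc1 and Cd163, scavenger receptors of the same cells, rose by 1.46 ± 0.34 and 1.32 ± 0.37, and the Cd163 call was lost without control replicate 1 (adjusted p = 0.055, edgeR). Apoe, a lipid carrier that lipid-laden macrophages secrete, had 2090 to 2995 CPM at day 14 (median 2420), against 336, 339, 621, 577 and 787 CPM in controls, a difference of 2.21 ± 0.21 (adjusted p = 2.7e-05, edgeR). Gpnmb, a surface protein of such cells, rose by 2.11 ± 0.44. Their usual companions Spp1 and Trem2 missed the threshold at 1.56 ± 0.95 and 1.28 ± 0.43 (adjusted p = 0.26 and 0.051, edgeR). Control replicate 4 held 31.6 CPM of Spp1 against 1.05 to 2.47 CPM in the other controls, and without it Spp1 was called at 3.80. Lysosomal genes rose in 9 of 17 tested, led by Ctss at 1.20 ± 0.33 and Lgmn at 1.12 ± 0.19.

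**Figure D2:**
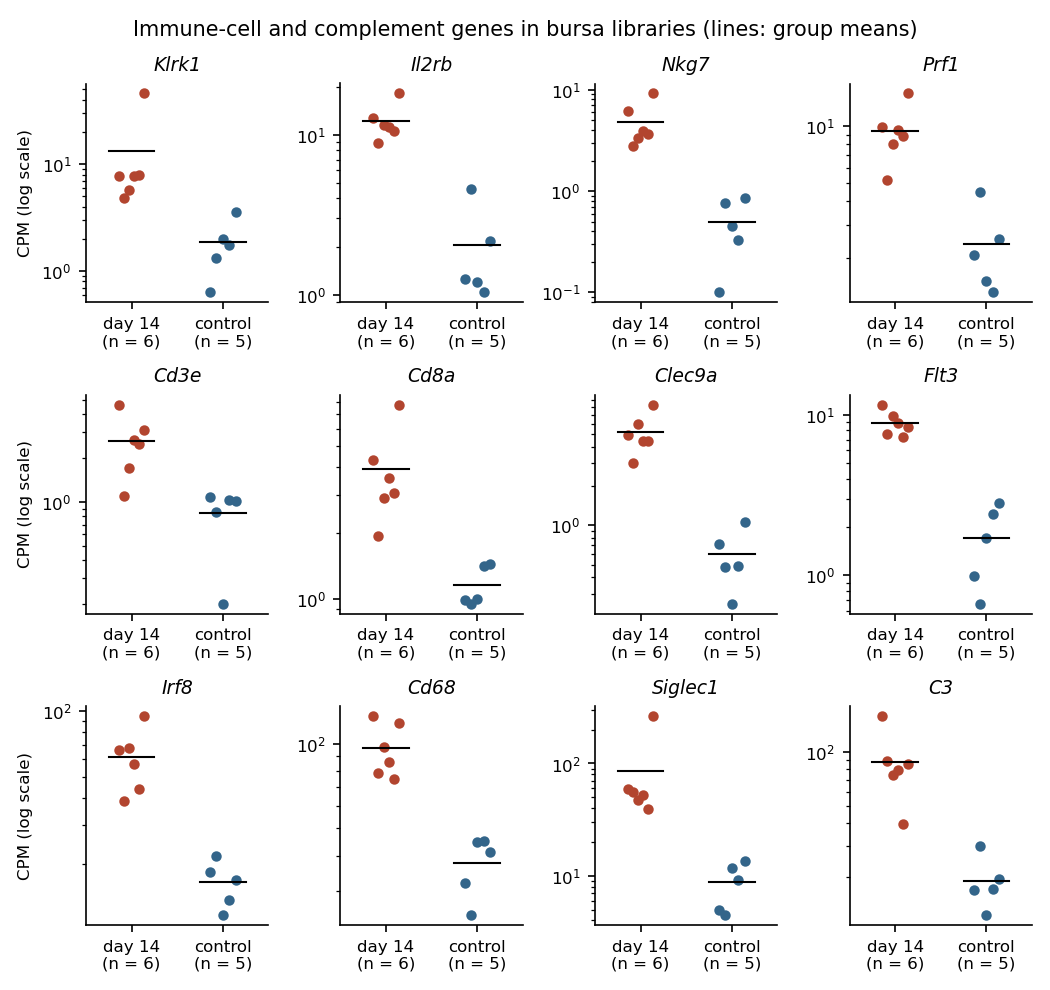
Each panel plots 1 immune or complement gene in CPM on a log axis, with a point for each of the 6 day 14 bursae (left) and 5 control bursae (right) and a line at the group mean; values under 0.1 CPM are drawn at 0.1. Every day 14 point lies above every control point, and day 14 replicate 6 stands apart for Klrk1 (45.9 CPM) and Siglec1 (264 CPM).

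Complement genes rose in 8 of 15 tested and none fell, with a count of 5 without day 14 replicate 6 and also without control replicates 1 and 2, and 4 without the 4 libraries that stood apart. C3, the central complement protein, had 39.6 to 159 CPM at day 14 (median 82.6), against 16.9, 29.7, 12.3, 17.2 and 19.4 CPM in controls, a difference of 2.20 ± 0.31 (adjusted p = 0.00051, edgeR). Cfp, the properdin that stabilises the alternative pathway, and C4a of the classical pathway rose by 1.54 ± 0.30 and 1.33 ± 0.20. In the authors' deposited table Cfb, the alternative pathway protease, which was not matched to a transcript here, had a log2 value of -2.29 for control over day 14, higher at day 14 (adjusted p = 2.1e-07 in that table).

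Among cytokines 4 of 11 tested rose, and 1 without the 4 libraries that stood apart. Il1rn, the natural blocker of interleukin 1, rose by 2.95 ± 0.69, with 2.15 to 34.6 CPM at day 14 (median 3.68), against 0.631, 1.52, 1.20, 1.20 and 1.19 CPM in controls. The value of 34.6 CPM was day 14 replicate 1, and the difference was 1.76 without it and still called. Il1b rose by 1.59 ± 0.33 and Osm, a cytokine of the interleukin 6 family, by 1.20 ± 0.32. Il6 itself was at 0.0426 to 0.701 CPM at day 14 and at 0 to 0.218 CPM in controls and did not pass. Of 22 tested chemokines and receptors 9 rose and 2 fell, a count that was 4 without control replicate 1 or 2, 5 without control replicate 3 or day 14 replicate 6, and 3 without both controls 1 and 2. Without the 4 libraries that stood apart 1 rose and 1 fell. Ccl3, which attracts monocytes and T cells, had 0.63 to 5.03 CPM at day 14 (median 1.51), against 0.18, 0.0949, 0.2, 0.273 and 0.255 CPM in controls (3.30 ± 0.57). The highest fold of the list, for Ccl12, came from day 14 replicate 6 at 12.3 CPM, against a day 14 median of 0.274 CPM and 0.0425 to 0.27 CPM in controls, and was not called without that library (1.33, adjusted p = 0.24, edgeR). The 2 that fell were Cxcl12, a stromal chemokine that holds blood cells in tissue, at -0.87 ± 0.21, and Cx3cl1, a membrane-bound chemokine, at -0.97 ± 0.24. Cxcl12 was 731 and 698 CPM in control replicates 1 and 2 and 317 to 363 CPM in the others, against 216 to 303 CPM at day 14, and its difference without those 2 controls was -0.34 (adjusted p = 0.08, edgeR).

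For the interferon response genes Mx1, Irf7, Cxcl10 and Isg15, day 14 replicate 6 stood far above the other day 14 bursae. Of 19 tested 5 rose (2 by DESeq2), against 2 without day 14 replicate 6, 3 without control replicate 4, and 1 without any one of control replicates 1, 2 and 3. Mx1, an antiviral GTPase, had 1487 CPM in day 14 replicate 6, the highest of a day 14 range that began at 10.7 CPM (median 27.4), against 2.70, 7.31, 5.16, 9.38 and 27.5 CPM in controls. Its difference was 4.68 ± 1.33 (adjusted p = 0.026, edgeR) with replicate 6 and 1.27 without it (adjusted p = 0.14, edgeR). Irf7, the transcription factor that amplifies interferon signals, was 1166 CPM in that library, with a day 14 median of 56.9 CPM and 14.6 to 42.4 CPM in controls (3.07 ± 0.89, and 0.95 with adjusted p = 0.073, edgeR, without replicate 6). Cxcl10, an interferon-induced chemokine for T cells, was 246 CPM in replicate 6, with a day 14 median of 2.90 CPM, against 0.901, 0.665, 1.45, 0.491 and 5.66 CPM in controls (4.50 ± 1.42, and 0.73 with adjusted p = 0.45, edgeR, without replicate 6). Cxcl9, a chemokine induced by interferon gamma, kept its call without that library: it had 44.6 to 374 CPM at day 14 (median 92.6), against 10.9, 22.8, 26.7, 18.9 and 35.7 CPM in controls, with a difference of 2.5 ± 0.47 and of 1.81 without replicate 6 (adjusted p = 0.0013, edgeR). Isg15, a ubiquitin-like antiviral protein, was 358 CPM in replicate 6 and 3.54 to 11.3 CPM in the other day 14 bursae, against 3.52 to 12.4 CPM in controls. The interferon-stimulated response element was searched as a pair of GAAA words with any 2 bases between them, on either strand of the same promoter windows. It was in 7 of the 13 members with a promoter in the table (53.8%), against 3.77% of all 27457 promoters. Of the genes described above, Cxcl10 and Irf7 held a match, and Mx1 and Cxcl9 did not. A part of the element in these changes was not tested. The Cxcl10 promoter is shown with its match in capitals, at chr14:15988816-15989115 of GRCr8, plus strand.
Cxcl10: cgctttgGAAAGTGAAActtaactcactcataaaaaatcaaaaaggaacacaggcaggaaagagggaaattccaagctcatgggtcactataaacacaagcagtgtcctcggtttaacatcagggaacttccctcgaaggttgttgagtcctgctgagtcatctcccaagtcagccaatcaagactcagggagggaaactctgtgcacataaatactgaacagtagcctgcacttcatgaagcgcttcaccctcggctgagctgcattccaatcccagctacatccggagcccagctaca

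**Figure D3:**
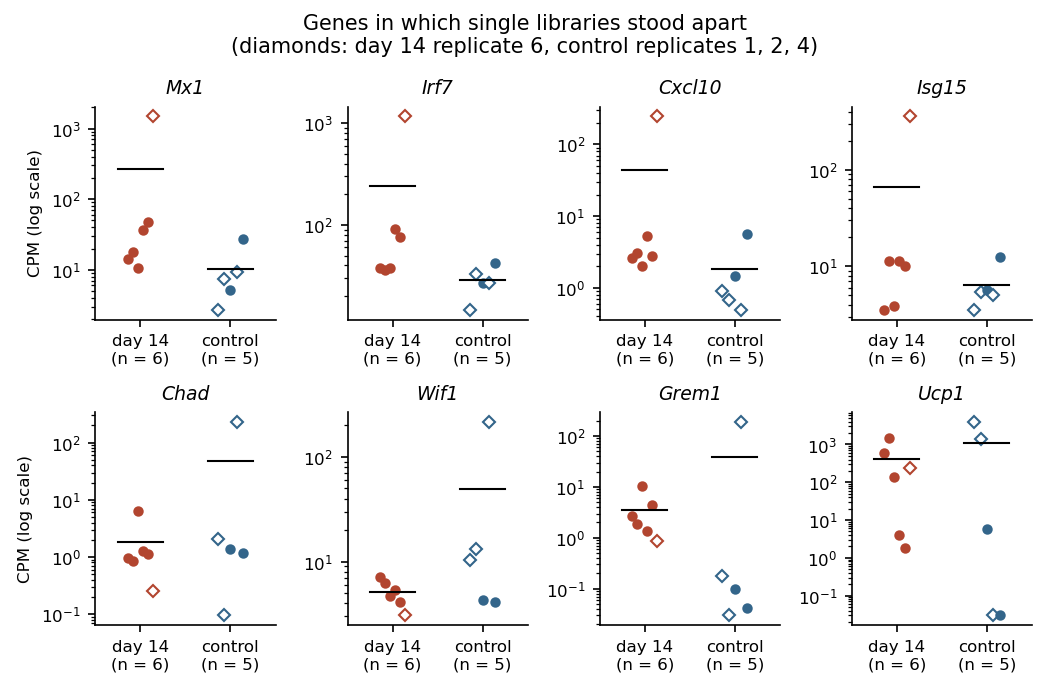
Each panel plots 1 gene in CPM on a log axis, with the 6 day 14 bursae left and the 5 control bursae right, a line at the group mean and open diamonds for day 14 replicate 6 and control replicates 1, 2 and 4; values under 0.03 CPM are drawn at 0.03. In the interferon genes day 14 replicate 6 is far above the rest (Mx1 at 1487 CPM), Chad, Wif1 and Grem1 are high in control replicate 4 (232, 216 and 190 CPM), and Ucp1 is highest in control replicate 1 (3993 CPM).

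Among the 15 largest rises by size that belong to no list above were 4 further genes. The feature LOC100911486, which has no name beyond its identifier, had 14.8 to 88.3 CPM at day 14 (median 52.6), against 0, 0, 0.551, 1.20 and 1.28 CPM in controls, a difference of 6.17 ± 0.64 (adjusted p = 4.5e-05, edgeR). Sorcs2, a receptor of the sortilin family best known in neurons, had 9.63 to 74.8 CPM at day 14 (median 33.1), against 2.07, 2.28, 3.86, 6.11 and 5.19 CPM in controls (3.15 ± 0.44). Like LOC100911486 it was lowest in day 14 replicate 6 and highest in replicate 2. Fcrl2, an Fc receptor-like protein that in humans is found on B cells, had 36.1 to 54.5 CPM at day 14 (median 39.7), against 2.88, 2.85, 8.82, 6.27 and 7.19 CPM in controls (2.92 ± 0.32), with an even level across the day 14 bursae. The feature AABR07006310.1 rose by 3.16 ± 0.42, and by 2.61 without day 14 replicate 6, where it reached 236 CPM.

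Genes that fell were fewer. Among markers of uninjured fibroblasts 4 of 18 rose and 3 fell. Leaving out day 14 replicate 1 or 3 or control replicate 1 or 2 left 2 rises, and without both controls 1 and 2 there were 2 rises and 5 falls, against 1 and 4 without the 4 libraries that stood apart. Of the falls, Myoc, a secreted olfactomedin-domain protein, had 28.7 to 64.6 CPM at day 14 (median 47.3), against 87.8, 47.3, 231, 444 and 400 CPM in controls (log2 difference -2.34 ± 0.54, adjusted p = 0.009, edgeR). Pla2g2a, a secreted phospholipase, had 11 to 24.8 CPM at day 14 (median 18.4), against 24.9, 47.4, 64.0, 156 and 140 CPM in controls (-2.29 ± 0.47). Cytl1, a small secreted protein best known in cartilage, had 43.5 to 64.1 CPM at day 14 (median 49.7), against 82.5, 87.8, 132, 691 and 194 CPM in controls (-2.21 ± 0.48). Cytl1 at 691 CPM was control replicate 4, and without that library its difference was -1.27 and still called (adjusted p = 0.01, edgeR). Of the members that rose, Hp, haptoglobin, changed most, by 1.91 ± 0.33, and Smoc2, a matrix protein, rose by 1.14 ± 0.30. Lamb3, a chain of the basement membrane laminin of epithelia, had the largest fall among genes chosen by size alone, with 1.75 to 2.99 CPM at day 14 (median 2.34), against 8.02, 3.99, 20.7, 18.8 and 15.9 CPM in controls (-2.54 ± 0.37, adjusted p = 0.00063, edgeR). Spry4, a feedback inhibitor of growth factor receptor signals, had the smallest p among the falls described, with 19.9 to 28.2 CPM at day 14 (median 24.4), against 57.0, 63.1, 56.2, 63.8 and 68.0 CPM in controls (-1.36 ± 0.14, adjusted p = 4.5e-05, edgeR). Its 5 controls lay within a narrow band, brown-fat-rich ones included. Egln3, an oxygen-sensing prolyl hydroxylase that acts on HIF, had 6.14 to 8.88 CPM at day 14 (median 7.66), against 38.7, 18.9, 14.8, 28.2 and 16.9 CPM in controls (-1.60 ± 0.42), and missed the threshold without control replicates 1 and 2 (-1.37, adjusted p = 0.072, edgeR). The others of the 15 largest falls, the galectin-related Grifin, the cytochrome Cyp4f39, the receptor phosphatase Ptpru and the methyltransferase Inmt, had log2 differences from -1.56 to -1.34, without overlap between groups.

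Some genes of fat storage and lipid handling fell. Of 17 white fat markers 4 fell and none rose, namely Adipoq at -0.65 ± 0.17, Plin1 at -0.74 ± 0.21, Cebpa at -0.74 ± 0.18 and Retn at -0.98 ± 0.19, with a median of -0.79. Without control replicate 2 the list had 1 rise and 3 falls. The summed level of the 17 markers was 15090 to 20079 CPM at day 14, against 39084, 47191, 23756, 17712 and 20200 CPM in controls. Retn, a hormone of rodent fat cells, had 175 to 338 CPM at day 14 (median 279), against 575, 536, 425, 525 and 625 CPM in controls, without overlap. The call of Adipoq was lost without control replicate 3 (adjusted p = 0.05, edgeR) and that of Plin1 without control replicate 2 or day 14 replicate 3 (adjusted p = 0.069 and 0.058, edgeR). Among the 15 largest falls by size were 5 more genes of lipid metabolism. G0s2, an inhibitor of the lipase that opens fat droplets, had 44.9 to 94.4 CPM at day 14 (median 76.9), against 294, 384, 192, 149 and 147 CPM in controls (-1.67 ± 0.31). Insig1, the brake on sterol synthesis, had 87.2 to 141 CPM at day 14 (median 95.0), against 190, 302, 310, 227 and 234 CPM in controls (-1.30 ± 0.16, adjusted p = 0.00016, edgeR). Aqp7, the glycerol channel of fat cells, fell by 1.28 ± 0.24, Angptl8, which restrains lipoprotein lipase, by 1.77 ± 0.32, and Ffar4, a receptor for long-chain fatty acids, by 1.76 ± 0.32. G0s2, Angptl8 and Ffar4 were highest in control replicates 1 and 2, and without them their differences were -1.15, -1.44 and -1.25, all still called. Of 9 brown fat markers edgeR called 0, with 1 fallen at an unadjusted p under 0.05 and 0 by DESeq2. Ucp1, the heat-making uncoupling protein, had 1.79 to 1484 CPM at day 14 and 3993, 1426, 5.71, 0 and 0 CPM in controls.

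Wnt pathway genes split. Of 19 tested, 3 secreted inhibitors rose, Sfrp2 at 2.25 ± 0.41, Sfrp4 at 2.07 ± 0.60 and Sfrp1 at 1.12 ± 0.24, and 4 genes fell. Without control replicate 4 these were 6 and 3, and without the 4 libraries that stood apart 2 and 2. Sfrp4 lost its call without day 14 replicate 3 or control replicate 1 (adjusted p = 0.066 and 0.057, edgeR). Sfrp2 had 145 to 264 CPM at day 14 (median 177), against 21.4, 9.40, 46.6, 50.5 and 64.2 CPM in controls. Frzb, a relative of the same family, fell instead, with 9.56 to 16.2 CPM at day 14 (median 14.4), against 13.5, 23.7, 78.0, 59.8 and 39.1 CPM in controls (-1.64 ± 0.35), and the ligand Wnt11 fell by 1.13 ± 0.25. The fall of the inhibitor Wif1, -3.30 ± 0.85, rested on control replicate 4 at 216 CPM, against 4.13 to 13.1 CPM in the other controls and 3.06 to 7.16 CPM at day 14, and was -0.63 without it (adjusted p = 0.16, edgeR). That of the ligand Wnt5b, -1.18 ± 0.38, was -0.72 without control replicate 1 (adjusted p = 0.17, edgeR). In the TGF-beta and BMP list 3 of 25 rose and 2 fell, near the shares over all features (9.41% risen and 6.96% fallen). Tgfb1 rose by 0.77 ± 0.19 and Tgfb3 by 1.02 ± 0.30, Fstl1, a secreted follistatin-like protein, rose by 1.21 ± 0.32, and Smad6, an inhibitor of BMP signals, fell by 0.85 ± 0.22 and Bmp6 by 1.01 ± 0.28. Tgfb3 lost its call in 7 of 11 fits that left out 1 library (adjusted p up to 0.075), and Bmp6 missed the threshold without control replicate 4 (-0.62, adjusted p = 0.059, edgeR). Without control replicates 1 and 2 the list had 2 rises and 8 falls, without either of them 2 and 4, and without control replicate 4 it had 5 and 1.

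Of 17 other growth factor genes 4 rose and 3 fell. Vegfd, a lymphatic growth factor, had 14.6 to 21.1 CPM at day 14 (median 17), against 1.98, 1.80, 4.16, 8.01 and 7.83 CPM in controls (1.84 ± 0.35), and Mdk, midkine, rose by 1.61 ± 0.23. Pdgfb, which recruits pericytes to vessels, had 33.6 to 42.7 CPM at day 14 (median 41.5), against 70, 72.3, 54.7, 59.5 and 67.4 CPM in controls (-0.72 ± 0.10, adjusted p = 0.00042, edgeR), and Fgf1 fell by 0.98 ± 0.25. Fewer rises, 2, were called without any one of day 14 replicates 2, 5 and 6 and control replicate 2, and also without the 4 libraries that stood apart. Of 18 endothelial genes 5 fell and none rose, with Esm1, a marker of growing vessel tips, at -0.94 ± 0.19 and Kdr, the main receptor for VEGF, at -0.71 ± 0.18. Their number was 2 without the 4 libraries that stood apart and 1 without control replicate 2, where the Kdr call was also lost (adjusted p = 0.053, edgeR), and Cdh5, the endothelial cadherin, had 220 to 359 CPM at day 14 and 260 to 341 CPM in controls. Of 11 Schwann cell genes only S100b, which fat cells also express, fell (-1.13 ± 0.22). Immediate early genes, which respond within minutes to many stimuli, fell in 3 of 15 tested, and in 8 without control replicates 1 and 2, 7, 6 and 5 without control replicate 1, 2 or 3 alone. Btg2 had 39.2 to 80.4 CPM at day 14 (median 59.1), against 96.4, 168, 89.4, 146 and 154 CPM in controls (-1.11 ± 0.23). Arc, an immediate early gene best known in neurons, fell by 2.06 ± 0.37 and is counted in no list. Egr1 and Fos missed the threshold at -1.38 and -1.41 (adjusted p = 0.062 and 0.083, edgeR), with control replicates 4 and 5 at 252 and 303 CPM of Egr1, against 32.0 to 79.4 CPM at day 14 and 25.8 to 63.6 CPM in the other 3 controls.

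Tendon, cartilage, lining and muscle genes were read as lists. Of 13 tendon markers Cilp, a matrix protein of cartilage and tendon, rose by 1.43 ± 0.36 and Chad, chondroadherin, fell. This is near the shares over all features, 9.41% risen and 6.96% fallen. The list had 5 rises and no fall without control replicate 4, 1 rise and 2 falls without any one of control replicates 1, 2 and 3, and 3 rises and 1 fall without the 4 libraries that stood apart. The Chad value was 232 CPM in control replicate 4, against 0.0949 to 2.07 CPM in the other controls and 0.258 to 6.35 CPM at day 14, and its difference of -4.72 ± 1.47 was 0.61 without that library (adjusted p = 0.67, edgeR). Grem1, a BMP antagonist, behaved alike, at 190 CPM in control replicate 4 and 0 to 0.18 CPM in the other controls, against 0.873 to 10.2 CPM at day 14. Its difference was -3.42 ± 1.49 with all libraries (adjusted p = 0.12, edgeR) and 5.42 without control replicate 4 (adjusted p = 0.0019, edgeR), a turn of direction. The tendon genes Tnmd and Scx did not pass, and without control replicate 4 Tnmd was called at 2.51. Phex, a peptidase of mineralising tissue, had 9.93 to 23.1 CPM at day 14 (median 14.8), against 2.16, 1.80, 2.10, 2.45 and 4.68 CPM in controls (2.54 ± 0.35, adjusted p = 0.00036, edgeR), and Runx2, a transcription factor of bone-forming cells, rose by 1.25 ± 0.27. They were the 2 called of 8 tested cartilage and bone genes, and 1 of the 8 fell without control replicates 1 and 2. Of 13 tested genes of synovial lining and lubrication 2 rose and 2 fell, against 1 and 3 without control replicates 1 and 2. Prg4, the lubricin of synovial lining, had 32.6 to 136 CPM at day 14 and 42.7, 6.93, 95.0, 683 and 158 CPM in controls and did not pass (adjusted p = 0.18, edgeR), but was called at -2.08 without control replicates 1 and 2 (adjusted p = 0.016, edgeR). Tnfaip6, which modifies hyaluronan, rose by 2.00 ± 0.45, and the secreted protease gene Htra1 by 0.93 ± 0.30. The tetraspanin Tspan15 fell, with 4.04 to 6.99 CPM at day 14 (median 5.93), against 8.74, 9.02, 11.3, 10.2 and 12.3 CPM in controls (-0.85 ± 0.17), and Clic5, a chloride intracellular channel protein, fell by 0.78 ± 0.25. The calls of Htra1 and Clic5 were lost in 8 and 7 of 11 fits that left out 1 library (adjusted p up to 0.09 and 0.11). Of 11 adult muscle genes edgeR called 0, as did DESeq2 and an unadjusted p under 0.05. Myh3, embryonic myosin, had 6.77 to 42.5 CPM at day 14 and 0.285 to 2.97 CPM in controls, without overlap, and an adjusted p of 0.099 (edgeR).

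Some genes that were not matched to a transcript here, not all of them list members, appear in the authors' deposited table. Its log2 values run control over day 14, so that a negative value is higher at day 14. Dlk1, a Notch-like protein of progenitor cells, stood at -6.37 in the authors' deposited table, the largest among those looked up. In the authors' deposited table natural killer and T cell receptor genes Klrc2, Klrb1b and Cd96 had -2.58, -2.34 and -2.98, and Foxp3 of regulatory T cells -2.45. The authors' deposited table gave -1.58 for Fkbp10 and -1.56 for Adamts2, both of collagen maturation, -1.54 for the pan-leukocyte gene Ptprc and -1.45 for Ciita, the master regulator of class II genes. In the other direction the authors' deposited table gave 2.21 for Fgf21, 0.80 for the myelin gene Mbp and 0.68 for Vegfa. All 12 of these had an adjusted p under 0.05 in that table. They were picked from the genes looked up, and others did not pass there. Among those were Fap at -0.925 and Vcan at -1.32 (adjusted p = 0.24 and 0.14, DESeq2 by the authors). Of the list that holds Foxp3, Ikzf2 was at -0.028 and Tigit at -2.59, and neither passed (adjusted p = 0.96 and 0.26, DESeq2 by the authors).

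**Figure D4:**
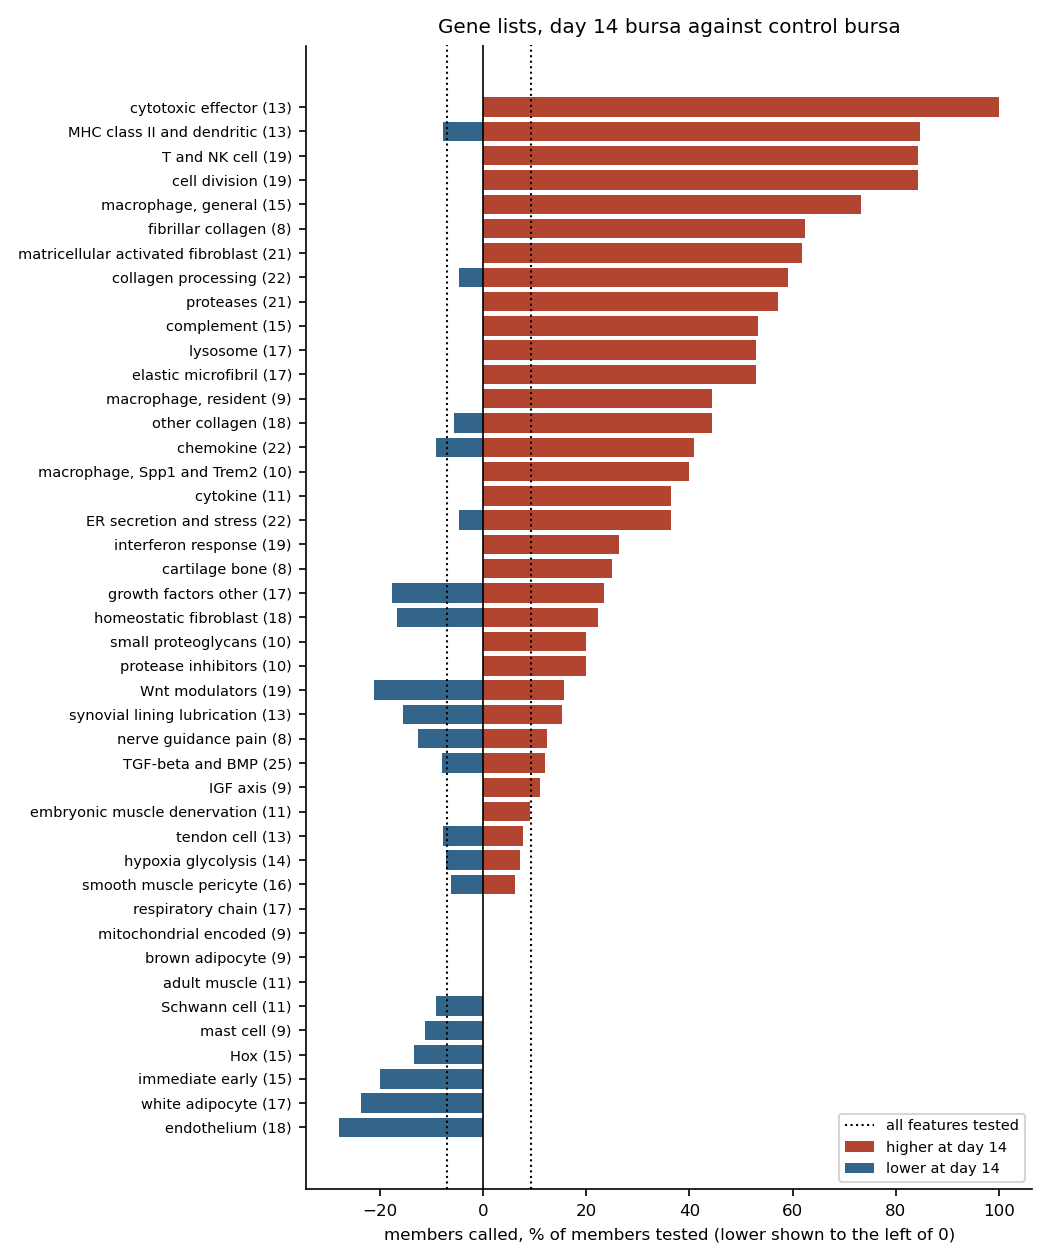
Bars give, for each gene list with at least 8 tested members (number in brackets), the percentage called higher at day 14 (to the right) and lower at day 14 (to the left of 0) against control bursa; dotted lines mark the share over all features, 9.41% higher and 6.96% lower. The cytotoxic effector list reaches 100% higher (13 of 13), and endothelium has the largest share lower (5 of 18). Cytotoxic members near 0 in every control, such as Eomes and Xcl1, could only be called higher.

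Day 14 was also set against day 3 in the same fit, in which 1559 features (9.61%) were higher and 1989 (12.3%) lower at day 14. Both time points share the same controls, so their values are given side by side. Cell division genes shifted: 18 of 19 tested genes were lower at day 14 than at day 3, with a median log2 difference of -2.86. Plk1, a kinase of mitosis, averaged 0.601 ± 0.188 CPM in controls, 16.9 ± 5.9 CPM at day 3 and 1.65 ± 0.40 CPM at day 14 (SD, n = 5, 6 and 6), and day 14 was lower than day 3 by 3.35 ± 0.26 on the log2 scale. Knstrn, Ccna2, Cdca3 and Ccnb1 followed the same course. At day 14 Plk1, Knstrn, Ccna2, Cdca3 and Ccnb1 were still called above control. Chrna1, the muscle acetylcholine receptor subunit, was the exception among the 6 largest falls, with 43.0 and 20.4 CPM in 2 day 3 libraries and 2.62 to 3.53 CPM in the other 4, against 0.473 to 2.34 CPM at day 14. Secretory pathway genes of the endoplasmic reticulum were lower at day 14 in 12 of 22 and lysosomal genes in 11 of 17.

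Fibrillar collagens did not separate the time points, with 0 of 8 called by edgeR (1 lower at an unadjusted p under 0.05, and 1 by DESeq2) and Col1a1 at -0.40 (adjusted p = 0.62), while Lox was lower at day 14 by 1.47 and Emilin1, a protein of elastic fibres, by 1.79. Cytotoxic effector genes went the other way: 12 of 13 were higher at day 14 than at day 3, with a median of 2.35. Members near 0 in every control, such as Eomes and Xcl1, could pass the filter on low counts only through injured bursae. The day 14 values thus helped to choose the tested members, and the count of 12 of 13 is in part fixed by this. Ccl5, a T cell chemokine, was higher by 3.89 (adjusted p = 1.8e-06, edgeR) and Gzmm, a granzyme, by 2.94. Of 19 general T cell and natural killer cell genes 8 were higher and 3 lower at day 14 than at day 3, with a median of 0.86. The coreceptor genes Cd8a and Cd8b went against this direction and were lower at day 14, by 1.12 and 2.11 (adjusted p = 0.0068 and 1.1e-05, edgeR). White fat markers were higher at day 14 in 8 of 17 and uninjured fibroblast markers in 9 of 18. Zbtb16, a transcription factor that glucocorticoids induce, averaged 18.1 ± 6.7 CPM in controls, 3.12 ± 1.42 CPM at day 3 and 42.0 ± 31.4 CPM at day 14 (SD), higher at day 14 than at day 3 by 3.75 ± 0.51. Pcdh20 and Dact2 also had their lowest values at day 3, and none of these 3, nor Chodl, was called at day 14 against control. Phex was different, at 2.64 ± 1.16 CPM in controls, 2.41 ± 1.13 CPM at day 3 and 15.6 ± 4.4 CPM at day 14 (SD), higher at day 14 than at day 3 by 2.70 ± 0.33.

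**Figure D5:**
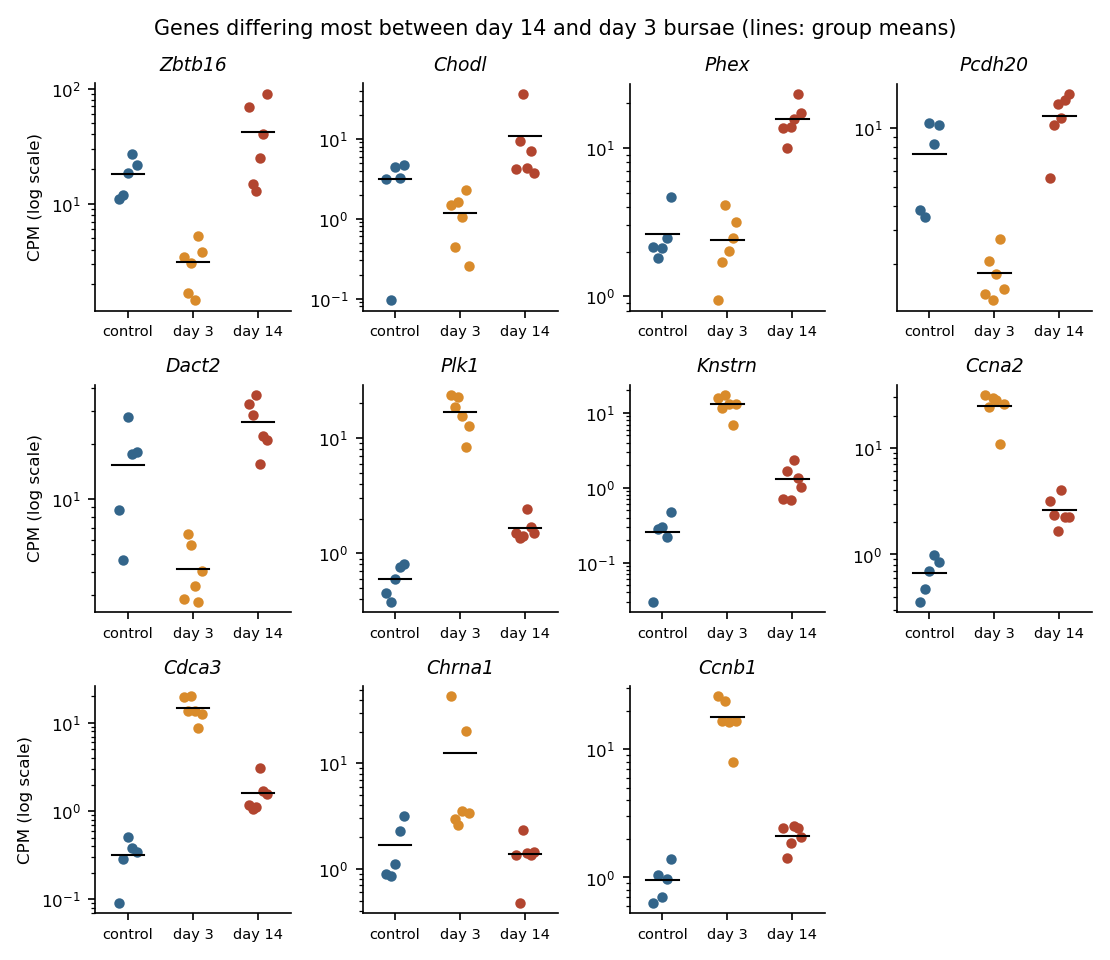
Each panel plots 1 gene in CPM on a log axis for the 5 control, 6 day 3 and 6 day 14 bursae, in time order, with a line at the group mean; values under 0.03 CPM are drawn at 0.03. The first 5 genes were among the highest at day 14 relative to day 3 and the last 6 were the lowest; Phex is flat to day 3 and then reaches 15.6 CPM on average, and Plk1 peaks at day 3 at 16.9 CPM.

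The bursa's response at day 14 was tested against that of the tendon with its bursa kept, as the difference of the 2 log2 differences over all 46 libraries. Of 17110 features 2656 (15.5%) responded more positively in bursa and 3349 (19.6%) more negatively, 35.1% in all. In the tendon itself 5505 features (32.2%) rose and 5184 (30.3%) fell, 62.5% in all. Fibrillar collagens were more negative in bursa in 4 of 9 tested and more positive in none, with a median of 1.64 in bursa and 3.24 in tendon. Col1a1 was not among them: it averaged 14902 ± 3634 CPM at day 14 and 1476 ± 1223 CPM in control bursae, and 41931 ± 6765 CPM at day 14 and 4707 ± 2798 CPM in control tendons (SD), a difference of responses of 0.18 ± 0.56 (adjusted p = 0.83, edgeR). Cthrc1 rose further in tendon, at 1061 ± 85 CPM at day 14 and 5.65 ± 2.43 CPM in control tendons, against 114 ± 76 CPM at day 14 and 2.35 ± 1.43 CPM in control bursae, a difference of -2.02 ± 0.49. Proteases and cell division genes were also more negative in bursa, in 11 of 22 and 12 of 19. For Spon1 and Cpz the responses differed by -0.18 ± 0.50 and 0.30 ± 0.61, with adjusted p of 0.81 and 0.74 (edgeR).

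Cytotoxic effector genes were more positive in bursa in 3 of 13 and more negative in none, against 15.5% and 19.6% of all features. Their medians were 2.40 in bursa and 1.64 in tendon. Interferon response genes were more positive in 11 of 19, a count that includes day 14 replicate 6 of the bursa, whose interferon genes stood apart. Uninjured fibroblast markers differed between the tissues: 12 of 18 were more positive in bursa, where their median response was 0.24, and 12 of 18 fell in tendon, where the median was -0.95. Pla2g2a fell in both tissues, to 17.6 ± 5.3 CPM at day 14, against 85.9 ± 57.3 CPM in control bursae, and to 2.77 ± 1.41 CPM at day 14, against 219 ± 113 CPM in control tendons (SD), so that the bursa response was higher by 4.04 ± 0.59. All 11 adult muscle genes fell in tendon and none passed in bursa. Of the largest differences, Prss35, a serine protease-like protein, averaged 6.22 ± 3.01 CPM at day 14 and 1.73 ± 1.00 CPM in control bursae, and 188 ± 67 CPM at day 14 and 1.02 ± 0.41 CPM in control tendons, a difference of -5.69 ± 0.56. Pitx1, Serpinb7 and Coch, the 3 largest positive differences, were at or below 0.455 CPM on average in both bursa groups. Pitx1 was listed at 0 in every control bursa and in 3 of 6 day 14 bursae, so its fitted difference is no measure of size. In tendon Pitx1, Serpinb7 and Coch fell by 3.40, 7.94 and 6.26 on the log2 scale.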

How the data were processed

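RNA of 46 bursa and tendon libraries was sequenced after poly-A pull-down, per the labels' protocols. The authors deposited 1 table of kallisto estimated counts per transcript (kallisto 0.44.0 and bcl2fastq 2.19, per the submitters' processing notes), held as whole numbers, and gene tables with a log2 fold change and adjusted p-value per comparison (DESeq2, version not given in those notes). The deposited log2 fold changes run control over day 14. No source used here names the genome build of the counts. The gene tables also hold a mean count over both groups, a signal the authors divided by size factors, and a Wald score by the authors, which was not used. The tables name transcripts and genes separately, so symbols were assigned by matching the values of the deposited count table to the mean counts of the gene tables: 13907 of 23747 symbols matched, holding 91.07% of all estimated counts (89.05 to 96.26% per library), and unmatched transcripts stayed in the fits under their own identifiers. After a shift of the values 12 of 15522 tries matched. Genes that share reads with close copies are uncertain.

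The 17 bursa libraries were fitted together with edgeR 4.0.16 in R 4.3.3 (TMM scaling, filterByExpr, robust quasi-likelihood test, Benjamini-Hochberg adjustment over all 16221 features, threshold 0.05), and all 46 libraries for the tendon comparison (17110 features). Standard errors are the log2 difference divided by the root of the F statistic. Alternatives were DESeq2 1.42.0, other scaling, no filter on low counts, a replicate block, removal of mitochondrial transcripts, thinning of the deepest library and leaving out libraries. The fit was tested on simulated data. Members and gene lists (48 lists, 801 genes, 640 tested) were chosen with earlier results of these data known. The text names the 15 features with the largest significant rise and the 15 with the largest fall among those with a symbol, no overlap between groups and at least 10 CPM in the higher group, 6 each way for the other comparisons, and called or defining members of each list, with a few further members named for their role after their values were seen. A few genes that this rule names are not reported here. The replicate numbers of the bursa groups did not pair the libraries.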

Additional observations from a re-analysis of the deposited data

Results flagged for a closer look

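In 62 of 332 combinations of a named gene and a group, 1 library stood far from the others of its group by Dixon's criterion. Chance meets this criterion in about 1 of 20 groups of normally distributed values. It was applied here to CPM, which need not be so distributed. The genes were also chosen with earlier results of these data known, so the 62 cannot be weighed against that share. Day 14 replicate 6 was such a library in 16 genes, besides its depth of 69.9 M counts. It held 1487 CPM of Mx1, 1166 CPM of Irf7, 358 CPM of Isg15, 246 CPM of Cxcl10, 374 CPM of Cxcl9, 12.3 CPM of Ccl12, 264 CPM of Siglec1 and 236 CPM of AABR07006310.1. Its other high values were 45.9 CPM of Klrk1, 26.6 CPM of Ms4a7, 41.9 CPM of Pcna, 5.78 CPM of Il1b, 3.59 CPM of Xcl1, 2.36 CPM of Havcr2, 1.95 CPM of Osm and 0.701 CPM of Il6.

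Day 14 replicate 2 was high in matrix genes, with 1211 CPM of Col12a1, 722 CPM of Tnc, 76.1 CPM of Lrrc15, 38.8 CPM of P4ha3, 12.3 CPM of Scx and 4.73 CPM of Podnl1, and in Angptl8 at 26.5 CPM. Day 14 replicate 4 was high in cell division genes, with 28.3 CPM of Mki67, 17.3 CPM of Top2a, 9.77 CPM of Cenpf and 2.42 CPM of Plk1, and held 14.0 CPM of Cx3cl1 and 8.44 CPM of P3h2. Day 14 replicate 1 was high in 89.8 CPM of Spp1, 336 CPM of Gpnmb, 66.5 CPM of Mmp12, 34.6 CPM of Il1rn and 2.75 CPM of A2m. Day 14 replicate 3 held 506 CPM of Sfrp4, 264 CPM of Sfrp2, 17.7 CPM of Il2ra and 6.35 CPM of Chad.

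Control replicate 4 stood apart in 13 genes, with 2084 CPM of Bgn, 691 CPM of Cytl1, 683 CPM of Prg4, 392 CPM of Thbs4, 299 CPM of Tnc, 232 CPM of Chad, 216 CPM of Wif1 and 190.2 CPM of Grem1, and with 31.6 CPM of Spp1, 19.8 CPM of Bmp6, 3.76 CPM of Fbn2, 2.51 CPM of Lrrc15 and 0.109 CPM of Mmp13. Control replicate 5 was highest among controls for Mx1 at 27.5 CPM, Isg15 at 12.4 CPM, Cxcl10 at 5.66 CPM and Phex at 4.68 CPM. Control replicate 1 had 179.7 CPM of C4a, the lowest control, 2.97 CPM of Myh3 and 0.27 CPM of Ccl12. Control replicate 3 had 25.5 CPM of Cyp4f39 and 0.20 CPM of Cd3e, the lowest control for that gene, and control replicate 2 had 17.3 CPM of Tyms and 0.759 CPM of Osm.

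Between time points, the bursa's response at day 14 was above that at day 3 by 3.75 on the log2 scale for Zbtb16, 3.17 for Chodl, 2.70 for Phex, 2.68 for Pcdh20 and 2.64 for Dact2. The log2 difference was -3.35 for Plk1, -3.31 for Knstrn, -3.25 for Ccna2, -3.19 for Cdca3, -3.17 for Chrna1 and -3.08 for Ccnb1. Between tissues, the log2 difference of the bursa response minus the tendon response was 9.60 for Pitx1, which was listed at 0 in control bursae and is given as fitted, 7.02 for Serpinb7, 6.92 for Coch, 6.17 for Myh3 and 4.68 for Cyp2e1. It was -11.28 for LOC108348074, which was listed at 0 in control tendons and is given as fitted, -6.67 for Scrg1, -6.15 for Edil3, -5.69 for Prss35, -5.66 for Hapln4 and -5.51 for Ptprn. Each of these 22 differences was tested directly in the fit, at an adjusted p under 0.05 (edgeR). Several rested on single libraries. Scrg1 had 130.4 CPM in control bursa replicate 4 and was listed at 0 in the other 4 control bursae, and its difference was 5.29 without that library (adjusted p = 0.4, edgeR), a turn of direction. Edil3 had 39.3 CPM there and 0.195 to 0.527 CPM in the other control bursae, and its difference was -1.50 without it (adjusted p = 0.2, edgeR). Hapln4 and Ptprn were high in control bursa replicates 1 and 2, and without both their differences were -2.72 (adjusted p = 0.16, edgeR) and -2.77 (adjusted p = 0.00017, edgeR). Cyp2e1 was at 1.82 without control tendon replicate 2 (adjusted p = 0.58, edgeR) and lost its call in 14 other fits that left out 1 library. Coch lost its call without day 14 bursa replicate 6 (adjusted p = 0.14, edgeR), as did Scrg1 (adjusted p = 0.062, edgeR).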

How the results depend on the processing

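Without day 3 libraries in the fit, 879 features were called higher and 678 lower at day 14 than in control bursae, against 1526 and 1129 with them. DESeq2 called 1844 higher and 1804 lower. Without control replicates 1, 2 and 4 and day 14 replicate 6, a choice made after seeing the data, the counts were 775 and 519, a fit that also holds fewer samples. Leaving out 1 library gave 1121 to 1885 higher and 760 to 1653 lower at day 14 against control, 1075 to 1611 and 1559 to 2088 against day 3, and 2387 to 3123 and 3091 to 3748 for the bursa and tendon responses. Without control replicates 1 and 2 the responses higher in bursa numbered 4009, against 2656 with them. The cause of these shifts was not tested.

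The replicate block gave 1268 higher and 810 lower against control, 1474 and 1835 against day 3, and 3224 and 3494 for the tissue responses. Correlations of same-numbered libraries ran from -0.159 to 0.278 over all pairs of groups compared. Between day 14 bursae and day 14 tendons with the bursa kept they ran from 0.0226 to 0.134. There the same number was the best match for replicates 1, 3, 5 and 6. Whether such libraries came from the same rat is not stated in the labels and was not tested. The main fit of the tissue responses treated them as independent, and the replicate block did not.

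Of 166 genes followed, 137 were called, of which 119 kept the call whichever single library was left out. Without the 4 libraries above, Cxcl10 stood at -0.16, Wif1 at 0.40, Wnt5b at 0.086 and Chad at 0.77, each with its sign turned, and over fits that left out 1 library Chad ran from -5.78 to 0.61, the last without control replicate 4. Genes at or below 1 CPM rest on few counts per library at this depth, so their differences are known less precisely.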
